A study of Mus musculus with 45 samples.

Results

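Transcript levels of 8 genes that lengthen and desaturate long fatty acids were followed in mouse liver through alcohol-induced injury and its resolution. The genes are the elongases Elovl1, Elovl2, Elovl3 and Elovl5, the elongation cycle reductases Hsd17b12 and Tecr, and the desaturases Fads1 and Fads2. They were taken by name as a pathway set, and 8 of 8 were found among the 24946 usable genes of the deposited table and among the 11244 genes tested. The set was chosen with earlier results of these data known, so its counts against all genes are descriptive. RNA came from whole liver lysate of wild-type (WT) mice, and each of the 45 libraries was made with a stranded mRNA kit. The peak stage followed 6 weeks of Lieber-DeCarli ethanol diet or control diet, liquid diets widely used to model alcoholic liver injury in mice. Mice at early resolution then had control diet for 3 days, and those at late resolution for 2 weeks. Each stage held ethanol-labelled males and females and control-labelled males and females, which gave 12 groups. Of these, 9 had 4 libraries, and 3 had 3 libraries, namely early ethanol females, late ethanol females and late ethanol males. The labels give no age and do not say whether replicates came from separate mice, and p-values thus reflect only the spread among libraries, which may be technical. Values are in TPM, which scale each library to a fixed total and correct for transcript length, so sequencing depth is unknown.

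Long fatty acids grow in the endoplasmic reticulum by a cycle of condensation, reduction, dehydration and a further reduction. The elongases perform the condensation and set which chains are lengthened, and the reductases serve all of them. Elovl1 and Elovl3 act mainly on saturated and monounsaturated very long chains, whereas Elovl2 and Elovl5 act on polyunsaturated chains. Fads2 introduces the first new double bond into dietary linoleic and alpha-linolenic acid, Elovl5 lengthens the product and Fads1 adds the next double bond, so that arachidonic and eicosapentaenoic acid are formed. Elovl2 carries the path on towards docosahexaenoic acid. In liver Fads1, Fads2 and Elovl5 are known targets of the lipogenic transcription factor encoded by Srebf1, and Elovl3 is known to be more abundant in male than in female mouse liver.

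Sex-chromosome transcripts went with the diet label and not with the sex label, which bears on every comparison that follows. In 21 of 21 ethanol-labelled libraries Xist, the noncoding RNA of the inactive X chromosome, stood between 13.7 and 51.8 TPM, and the Y-linked gene Eif2s3y stood at or under 0.0386 TPM. Of the 24 control-labelled libraries, 23 had Eif2s3y between 7.83 and 12.7 TPM and Xist between 0.00165 and 0.349 TPM. The exception was late control female 1, with 39.5 TPM of Xist and Eif2s3y listed at 0. These transcripts went against the sex label in 22 libraries, 11 of them ethanol-labelled males and 11 control-labelled females. The diet label and the sex of the liver therefore cannot be told apart in these libraries. Groups were kept as labelled, so males and females below are named by the sex label and not by these transcripts. A comparison of sex labels within a diet label sets libraries with the same sex-chromosome transcripts against each other, apart from late control female 1.

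The genes lie on 6 chromosomes (mm10, GENCODE M21 annotation). Elovl1 is at chr4:118428093-118432953 on the plus strand, Elovl2 at chr13:41182381-41220405 on the minus strand, Elovl3 at chr19:46131897-46135694 on the plus strand and Elovl5 at chr9:77917364-77984519 on the plus strand. Hsd17b12 is at chr2:94032689-94157964 and Tecr at chr8:83571698-83607971, both on the minus strand. Fads1 (chr19:10182888-10196877, plus strand) and Fads2 (chr19:10062765-10101746, minus strand) are neighbours that point away from each other across a gap of 81141 bases. All 8 are annotated as protein-coding.

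RefSeq promoter entries (build GRCm38.p6) matched 6 of the 8 genes, namely Elovl1, Elovl2, Elovl5, Fads2, Hsd17b12 and Tecr. Printed here are the bases before the gene for Elovl5, which was higher with the ethanol label at peak, and Hsd17b12, which was lower at every stage. Each comes from the 250 bases before the RefSeq start site, and the bases that lie inside the GENCODE gene are left out, 1 for Elovl5 and 55 for Hsd17b12. The Fads2 window lay inside the GENCODE gene for 243 of 250 bases and is not printed. Capitals mark matches to any of the motifs searched on both strands, which were TCACNCCAC (a sterol regulatory element), CCAAT (the CCAAT box), GGGCGG (the GC box), CACGTG (the E box), TATAAA (the TATA box), TTCNNNGAA (a STAT-type site) and the direct repeat of nuclear receptors with a spacer of 1 base. The printed stretches are chr9:77917115-77917363 (plus strand) and chr2:94157965-94158159 (minus strand), each written from 5′ to 3′ along its gene.
Elovl5: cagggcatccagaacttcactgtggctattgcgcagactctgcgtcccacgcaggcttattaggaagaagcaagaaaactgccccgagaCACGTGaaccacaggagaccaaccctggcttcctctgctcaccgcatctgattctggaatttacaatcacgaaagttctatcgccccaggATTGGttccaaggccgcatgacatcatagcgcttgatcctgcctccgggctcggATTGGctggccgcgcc
Hsd17b12: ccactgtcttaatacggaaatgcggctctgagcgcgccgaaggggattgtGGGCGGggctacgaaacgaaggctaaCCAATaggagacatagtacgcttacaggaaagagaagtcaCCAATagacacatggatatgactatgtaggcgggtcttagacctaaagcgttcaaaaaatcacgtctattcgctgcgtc

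The Elovl5 window held 2 CCAAT boxes on the minus strand, written ATTGG and beginning 71 and 17 bases before the start site, and an E box beginning 161 bases before it. The printed stretch was 55.8% GC, against a median of 52.4% over all 32851 RefSeq windows of 250 bases. The Hsd17b12 window held a GC box beginning 200 bases and CCAAT boxes beginning 174 and 134 bases before the RefSeq start site, in a printed stretch of 49.2% GC. A CCAAT box was present in 33.8% of all windows, a GC box in 32.7% and an E box in 6.02%. The sterol regulatory element as spelled was found in none of the windows of the 6 genes, and in 1.05% of all windows. TATAAA (12.4% of all windows), TTCNNNGAA (7.02%) and the nuclear receptor direct repeat (0.0335%) were likewise in none of these windows, which says only that these letters are absent there.

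All 8 genes were well expressed. Fads2 had the highest mean over the 45 libraries, 667 TPM, and lay at percentile 98.3 of the genes tested. Tecr (368 TPM), Elovl5 (278 TPM), Fads1 (228 TPM), Elovl2 (163 TPM) and Hsd17b12 (144 TPM) followed. Elovl3 averaged 90.8 TPM but ranged from 0.77 to 543 TPM, a ratio of 705 between libraries. Elovl1 had the lowest mean, 31.1 TPM, at percentile 80.8. Between the lowest and highest library, the ratio was 4.80 for Fads2, 4.59 for Elovl5, 3.30 for Fads1 and between 2.36 and 2.72 for Elovl1, Elovl2, Hsd17b12 and Tecr. The 12 groups accounted for 93.8% of the variance of log2(TPM + 0.5) of Elovl3, for 65.5% in Hsd17b12 and for 29.7% in Fads2. Fads2 varied mostly among libraries of the same group.

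**Figure D1:**
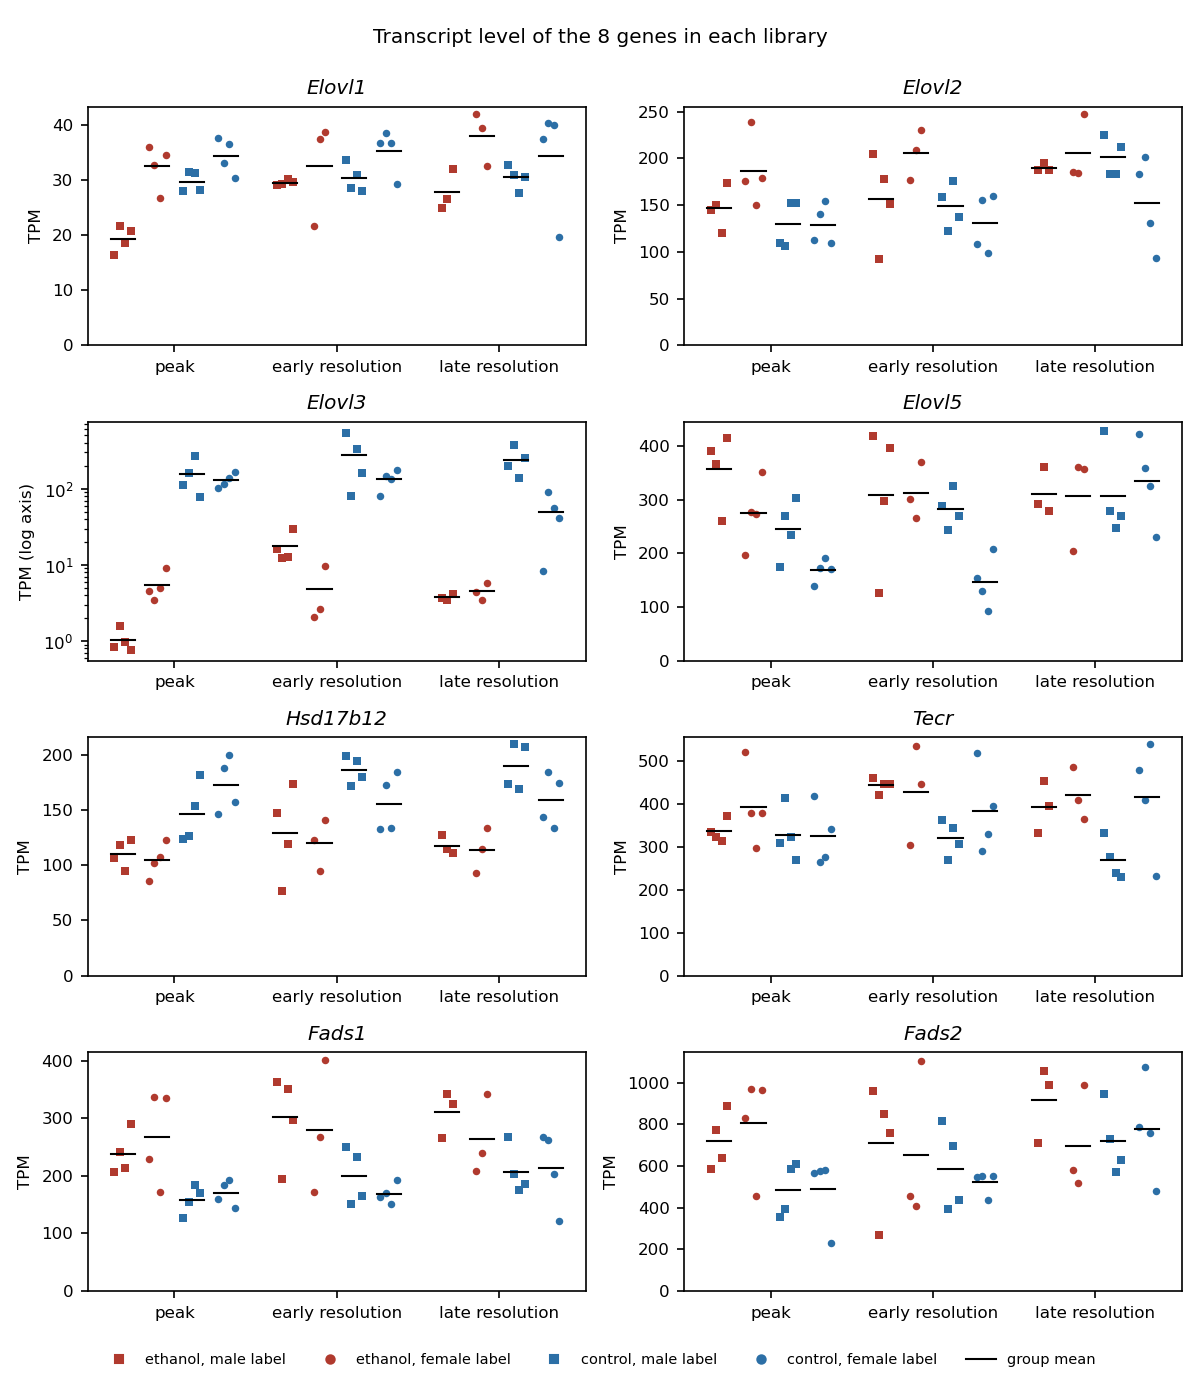
Transcript level in TPM (y axis) of each gene in each library at the 3 stages (x axis), with ethanol-labelled libraries in red left of control-labelled libraries in blue, male-labelled libraries as squares and female-labelled ones as circles, and group means as lines. Elovl3 is on a log axis and runs from 0.77 to 543 TPM; the other axes start at 0, and the spread of Fads2 within a group is wide.

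At peak, after 6 weeks of diet, Elovl5, Fads1 and Fads2 of the polyunsaturated path were higher in ethanol-labelled livers, and Elovl3, Hsd17b12 and Elovl1 were lower. Ethanol-labelled levels of Elovl5, Fads1 and Fads2 were 1.53, 1.51 and 1.60 times the control-labelled levels, and those of Elovl1 and Hsd17b12 were 0.786 and 0.679 times. For Elovl3 the ratio was 0.0219, all on the log2(TPM + 0.5) scale of the test. In limma's moderated test over all 11244 genes (Benjamini-Hochberg adjusted p under 0.05), 6 of the 8 genes were called, 3 higher and 3 lower, against 27.1% of all genes, 17.3% higher and 9.81% lower. The median log2 difference was 0.26 over the 8 genes and 0.05 over all genes tested. After median-of-ratios scaling 4 genes were called higher and 3 lower, with Elovl2 as the added call, against 35.6% of all genes.

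Elovl3, which makes saturated and monounsaturated very long chain fatty acids, separated the diet labels completely at peak. It stood at 0.832, 1.59, 0.977 and 0.77 TPM in ethanol-labelled males, against 110.4, 161, 271 and 77.8 TPM in control-labelled males. Ethanol-labelled females had 4.52, 3.46, 5.02 and 9.01 TPM, against 102, 115, 136 and 165 TPM in control-labelled females. Every ethanol-labelled library lay below every control-labelled one. The log2 difference was -5.51 ± 0.36 (SE, limma adjusted p = 2.5e-13), and 8 of 8 ethanol-labelled libraries were on this side. Such counts set each ethanol-labelled library against the mean log2(TPM + 0.5) of the control-labelled group of its stage and sex label. Without the libraries whose sex-chromosome transcripts went against their sex label, the Elovl3 difference was -4.62 ± 0.53 (limma adjusted p = 4.9e-06), a comparison of ethanol-labelled females with control-labelled males.

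Hsd17b12, the ketoacyl-CoA reductase of the elongation cycle, was lower with the ethanol label at peak without overlap. Ethanol-labelled males had 107, 118, 94.6 and 123 TPM, against 124, 126, 153 and 181 TPM in control-labelled males. Ethanol-labelled females had 85.4, 102, 107 and 123 TPM, against 146, 188, 199.6 and 158 TPM in control-labelled females. The ranges only just separated, at 122.9 TPM in the highest ethanol-labelled library and 124 TPM in the lowest control-labelled one. The log2 difference was -0.56 ± 0.12 (SE, limma adjusted p = 0.00097) and was in this direction in 8 of 8 libraries. Tecr, the enoyl-CoA reductase that closes the cycle, ranged from 298 to 519 TPM (median 353 TPM) with the ethanol label and from 263 to 418 TPM (median 316 TPM) with the control label. Its difference of 0.16 ± 0.15 (SE, limma adjusted p = 0.44) was not called.

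Fads1 and Fads2, the front-end desaturases of the polyunsaturated path, were both higher with the ethanol label at peak. Fads1 had 207, 241, 214 and 290.5 TPM in ethanol-labelled males, against 127, 154, 184 and 169.5 TPM in control-labelled males. It had 229.6, 336, 171 and 335 TPM in ethanol-labelled females, against 159.6, 184, 193 and 144 TPM in control-labelled females. Only peak ethanol female 3 fell within the control-labelled range, and the log2 difference was 0.60 ± 0.17 (SE, limma adjusted p = 0.009), in this direction in 8 of 8 libraries. Fads2 ranged from 456 to 970.4 TPM (median 801 TPM) in ethanol-labelled livers, against 229 to 608 TPM (median 572 TPM) in control-labelled livers. Its log2 difference of 0.67 ± 0.25 (SE, limma adjusted p = 0.038) held in 7 of 8 libraries and passed narrowly. Leaving out any of 8 single libraries, among them peak control female 4 with 229 TPM, put its adjusted p above 0.05, at up to 0.12. The call was also lost with no filter, under quantile normalization and without the libraries against their sex label (limma adjusted p = 0.056, 0.052 and 0.10).

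Elovl5, which lengthens the products of Fads2, was higher with the ethanol label at peak. Ethanol-labelled males had 390.1, 366, 260.1 and 415 TPM, against 174, 269, 235 and 304 TPM in control-labelled males. Ethanol-labelled females had 198, 278, 273 and 352 TPM, against 139, 173, 191 and 171 TPM in control-labelled females. Between female-labelled groups the ranges did not overlap, and between male-labelled groups they overlapped at 260.1 to 304 TPM. The log2 difference was 0.62 ± 0.19 (SE, limma adjusted p = 0.016), in this direction in 8 of 8 libraries. Without the libraries against their sex label the Elovl5 difference was 0.16 and was not called (limma adjusted p = 0.58). That comparison set ethanol-labelled females against control-labelled males, and in it the median over all genes was 0.34, against 0.05 with all libraries. Elovl2, which works further along the same path, ranged from 120.5 to 239 TPM (median 162 TPM) with the ethanol label and from 106 to 155 TPM (median 126 TPM) with the control label. Its difference of 0.35 ± 0.15 (SE, limma adjusted p = 0.075) was not called as deposited, but was called at 0.30 after median-of-ratios scaling (limma adjusted p = 0.018). Elovl2 was also called when the stage was fitted alone and without the libraries against their sex label.

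Elovl1, the broadly expressed elongase of saturated very long chains, was lower with the ethanol label at peak. Ethanol-labelled males had 16.4, 21.7, 18.6 and 20.7 TPM, against 28.0, 31.4, 31.3 and 28.1 TPM in control-labelled males. Ethanol-labelled females had 36.0, 32.7, 26.8 and 34.6 TPM, against 37.7, 33.0, 36.4 and 30.4 TPM in control-labelled females. The male-labelled ranges were apart and the female-labelled ranges overlapped. Averaged over the sex labels the log2 difference was -0.35 ± 0.11 (SE, limma adjusted p = 0.022), and 6 of 8 libraries were in this direction. Within male labels it was -0.61 ± 0.16 (SE, limma adjusted p = 0.0059, 23.4% of all genes called), but the diet by sex label interaction of -0.53 ± 0.23 was not called (limma adjusted p = 0.34). After median-of-ratios scaling the difference was -0.55 within male labels and -0.25 within female labels, with an interaction of -0.30 (limma adjusted p = 0.46). Leaving out peak ethanol female 3 or peak ethanol male 1 put the averaged Elovl1 difference just past the threshold (limma adjusted p up to 0.057). Without the libraries against their sex label the Elovl1 difference was 0.12 (limma adjusted p = 0.54). The median over all genes was then 0.34, against 0.05 with all libraries.

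Some markers of other liver cells differed between the diet labels at peak. Of 5 endothelial markers, 5 were higher, and their summed level was 38.4 to 90.1 TPM in ethanol-labelled livers and 18.1 to 52.8 TPM in control-labelled livers. Stellate markers were higher in 3 of 5 and cholangiocyte markers in 2 of 3 tested. Of all genes tested, 17.3% were called higher and 9.81% lower. Summed T and NK cell markers had medians of 4.98 TPM with the ethanol label and 2.63 TPM with the control label. The same medians were 287 and 195 TPM for macrophage, 2.56 and 1.55 TPM for B cell and 69.0 and 59.8 TPM for neutrophil markers. For erythroid markers they were 359 and 405 TPM. The ranges overlapped in each of these lists. The 6 hepatocyte markers summed to between 156269 and 181075 TPM with the ethanol label and between 122030 and 149174 TPM with the control label, and 1 was called higher. Adipocyte markers summed to a median of 0.104 TPM with the ethanol label and 10.6 TPM with the control label, with ranges of 0 to 18.5 TPM and 4.01 to 70.3 TPM, and 1 of 2 tested was lower. In bulk liver, fewer cells of a type and less RNA per cell cannot be told apart, and the part of cell makeup in the results for the 8 genes was not tested.

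Of all genes tested, 16.7% were called between the diet labels at early resolution, after 3 days on control diet, and 4 of the 8 genes were among those called. Elovl5 and Fads1 were higher and Elovl3 and Hsd17b12 were lower with the ethanol label, against 14.3% of all genes higher and 2.46% lower. All genes tested had a median shift of 0.13 on the log2 scale, and after median-of-ratios scaling, which sets it to -0.01, Fads1 stayed higher (0.46, limma adjusted p = 0.0048) and Elovl3 and Hsd17b12 lower (-4.44 and -0.64). Elovl5 was then 0.42 higher and not called (limma adjusted p = 0.092), with 15.9% of all genes called.

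Elovl3 stayed apart at early resolution. Ethanol-labelled males had 16.2, 12.3, 12.7 and 29.2 TPM, against 543, 79.8, 329 and 159 TPM in control-labelled males. Ethanol-labelled females had 2.09, 2.65 and 9.59 TPM, against 79.4, 146, 134 and 178 TPM in control-labelled females. No ethanol-labelled value reached a control-labelled one, and the log2 difference was -4.29 ± 0.38 (SE, limma adjusted p = 7.4e-11). Hsd17b12 had 147, 76.8, 119 and 173 TPM in ethanol-labelled males, against 199, 172, 194 and 179 TPM in control-labelled males. In female-labelled libraries it had 123, 95.1 and 141 TPM with the ethanol label and 132, 172, 134 and 184 TPM with the control label. These ranges overlapped, but 7 of 7 ethanol-labelled libraries were on the low side, with a log2 difference of -0.48 ± 0.13 (SE, limma adjusted p = 0.0087). Without early ethanol female 2 it was -0.41 and narrowly missed the threshold (limma adjusted p = 0.052). The call on Hsd17b12 was also lost when the stage was fitted alone.

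Fads1 ranged from 172 to 400.2 TPM (median 297 TPM) in ethanol-labelled livers at early resolution, against 151 to 249 TPM (median 167 TPM) in control-labelled livers. Its log2 difference of 0.62 ± 0.18 (SE, limma adjusted p = 0.016) held in 7 of 7 libraries, and without early ethanol female 3, the highest of them, it was 0.47 (limma adjusted p = 0.09). Without the libraries against their sex label it was 0.44 (limma adjusted p = 0.37). Fads2, its neighbour on chromosome 19, ranged from 269 to 1101 TPM with the ethanol label and from 392 to 815 TPM with the control label. The ethanol-labelled range of Fads2 enclosed the control-labelled one, and its difference of 0.19 ± 0.26 was not called (limma adjusted p = 0.67). Elovl2 (0.35 ± 0.16, limma adjusted p = 0.12), Tecr (0.32 ± 0.15, limma adjusted p = 0.16) and Elovl1 (-0.09 ± 0.12, limma adjusted p = 0.65) were not called either.

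Elovl5 at early resolution had 302, 265 and 371 TPM in ethanol-labelled females, against 153, 129.8, 93.3 and 208 TPM in control-labelled females, with no overlap. In male-labelled libraries it had 419, 125, 297 and 397 TPM with the ethanol label and 289, 244, 326 and 269.8 TPM with the control label. The averaged log2 difference was 0.57 ± 0.20 (SE, limma adjusted p = 0.045), with 1.14 ± 0.29 within female labels (limma adjusted p = 0.017, 3.92% of all genes called) and 0.00 within male labels. The interaction of -1.14 ± 0.40 was not called (unadjusted p = 0.0073, limma adjusted p = 1), so a difference between the sex labels was not shown. The averaged call was lost in 5 of the alternative settings and on leaving out any of 11 single libraries. Early ethanol male 2 was the lowest ethanol-labelled library at this stage for Elovl2 (91.8 TPM), Elovl5 (125 TPM), Hsd17b12 (76.8 TPM) and Fads2 (269 TPM).

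Macrophage markers were higher with the ethanol label at early resolution in 5 of 6, with sums of 286 to 484 TPM in ethanol-labelled livers and 107 to 357 TPM in control-labelled livers. T and NK cell markers were higher in 3 of 4, at sums of 3.34 to 10.0 TPM in ethanol-labelled livers and 1.48 to 4.19 TPM in control-labelled livers. Adipocyte markers, 1 of 2 tested lower, summed to a median of 0.131 TPM (0.0103 to 2.15 TPM) with the ethanol label and 9.57 TPM (0.587 to 36.1 TPM) with the control label. Of all genes tested, 14.3% were called higher and 2.46% lower. Stellate marker sums were 98.6 to 137 TPM with the ethanol label and 47.3 to 94.1 TPM with the control label. Endothelial sums were 43.9 to 73.2 and 29.8 to 48.4 TPM, and hepatocyte sums 135376 to 190186 and 80043 to 152372 TPM. Median sums were 6.24 and 2.68 TPM for B cell and 9.89 and 5.13 TPM for neutrophil markers. The part of these cell types in the results of this stage was not tested.

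By late resolution, after 2 weeks on control diet, only Elovl3 and Hsd17b12 of the 8 genes were called between the diet labels, both lower with the ethanol label, against 12.8% of all genes called, with 3.98% of all genes lower. Elovl3 had 3.67, 3.46 and 4.18 TPM in ethanol-labelled males, against 200.3, 378, 136 and 250.3 TPM in control-labelled males. Ethanol-labelled females had 4.47, 3.50 and 5.72 TPM, against 8.33, 90.7, 56.4 and 41.8 TPM in control-labelled females. The 8.33 TPM belonged to late control female 1, the control-labelled library with Xist, and the next lowest control-labelled value was 41.8 TPM. The log2 difference was -4.32 ± 0.39 (SE, limma adjusted p = 4.1e-10), and it was -4.66 without late control female 1.

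Hsd17b12 at late resolution ranged from 92.7 to 133.8 TPM (median 115 TPM) with the ethanol label and from 133.7 to 209 TPM (median 174 TPM) with the control label, so the ranges overlapped only at their ends. Its log2 difference was -0.58 ± 0.13 (SE, limma adjusted p = 0.0032), in this direction in 6 of 6 libraries. Without the libraries against their sex label, ethanol-labelled females differed from control-labelled males by -5.50 ± 0.57 in Elovl3 and by -0.74 ± 0.17 in Hsd17b12 (SE, limma adjusted p = 1.9e-06 and 0.0057), a comparison added after the data were seen. From late control female 1 alone, whose Xist they share, ethanol-labelled females differed by -0.83 in Elovl3 and -0.35 in Hsd17b12. These values rest on a single control-labelled library, for which the fit assumed the spread of the other groups. Fads1 had 209 to 342 TPM with the ethanol label, against 121 to 268 TPM with the control label, a difference of 0.47 ± 0.19 that was not called (SE, limma adjusted p = 0.091). It was called after median-of-ratios scaling (0.40, limma adjusted p = 0.017, 20% of all genes called) and without late control female 1 (0.53, limma adjusted p = 0.046).

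Elovl5, called at the earlier stages, differed by -0.04 ± 0.21 at late resolution (SE, limma adjusted p = 0.91), with 204 to 362 TPM in ethanol-labelled livers and 230.3 to 429 TPM in control-labelled livers. Fads2 differed by 0.10 ± 0.27, Elovl1 by 0.03 ± 0.12, Elovl2 by 0.20 ± 0.16 and Tecr by 0.31 ± 0.16 (SE), none of them called (limma adjusted p from 0.19 to 0.9). At this stage T and NK cell markers were higher with the ethanol label in 4 of 4 and macrophage markers in 3 of 6. Of all genes tested, 12.8% were called in either direction, and 68.9% of those calls were higher. B cell marker sums were 4.14 to 32.5 TPM with the ethanol label and 0.699 to 3.92 TPM with the control label. For hepatocyte markers they were 174939 to 204728 and 114978 to 182170 TPM. Median sums were 99.2 and 75.2 TPM for stellate, 47.1 and 40.5 TPM for endothelial and 0.257 and 5.32 TPM for adipocyte markers. The part of these cell types was not tested.

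Changes of the diet label difference between stages were tested directly. None of the 8 genes was called from peak to early resolution, where 0% of all genes were called, or from peak to late resolution, where 3.98% were. The value for the Elovl5 difference from peak to late resolution was -0.66 ± 0.28 (unadjusted p = 0.025, limma adjusted p = 0.15). For Elovl3 the values were 1.22 ± 0.53 by early resolution (SE, limma adjusted p = 0.25) and 1.20 ± 0.54 by late resolution (SE, limma adjusted p = 0.17), and none of these passed the threshold. At an unadjusted p under 0.05 there was 1 of the 8 genes by early resolution and 3 by late resolution, against 16.7% and 24% of all genes. Leaving out early ethanol female 1 put 1073 of all genes past the adjusted threshold by early resolution, and leaving out late ethanol female 3 put 1067 past it by late resolution, but none of the 8 genes was called without either library. These changes share the peak libraries.

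**Figure D2:**
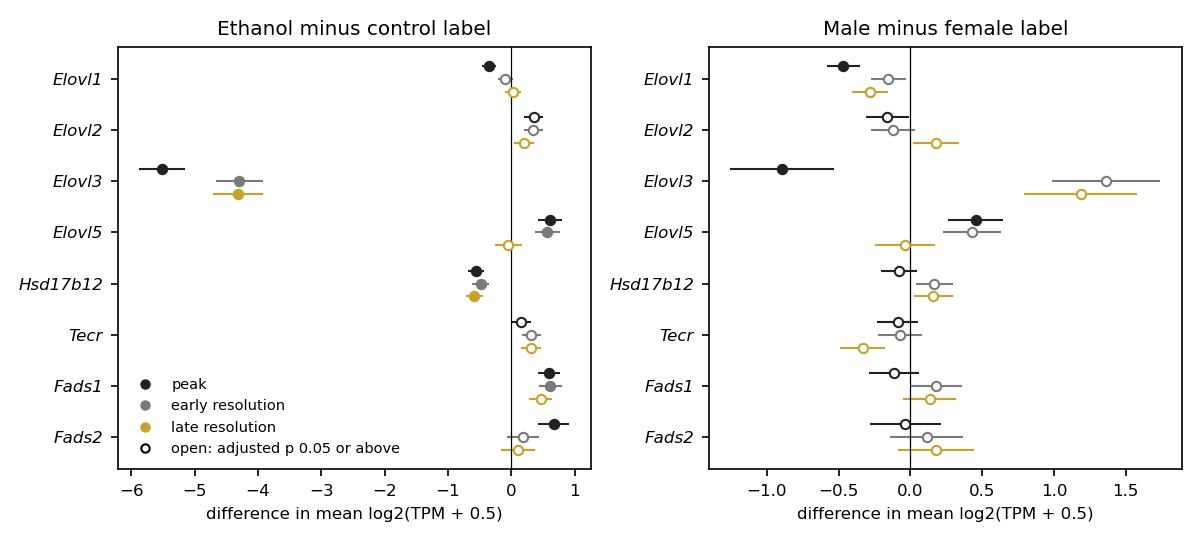
Log2 difference in mean log2(TPM + 0.5) (x axis) of each gene (y axis) for ethanol minus control label (left) and male minus female label (right) at the 3 stages, with bars for 1 SE. Filled points passed an adjusted p of 0.05; Elovl3 lies between -5.51 and -4.29 at every stage on the left, and moves from -0.89 at peak to 1.36 and 1.19 on the right.

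Between the sex labels at peak, Elovl5 was higher and Elovl1 and Elovl3 were lower in male-labelled livers. These were 3 of the 8 genes, against 51% of all genes called, 4.26% higher and 46.7% lower. The median over all genes was -0.29, so most genes tested lay lower in male-labelled libraries. After median-of-ratios scaling, which removes this shift, only Elovl5 was called among the 8 genes, against 31.9% of all genes. Its difference of 0.45 ± 0.19 (SE, limma adjusted p = 0.048) was then 0.79 ± 0.16 (SE, limma adjusted p = 0.00055). Elovl5 ranged from 174 to 415 TPM (median 287 TPM) in male-labelled livers and from 139 to 352 TPM (median 194 TPM) in female-labelled livers. As deposited, the call on Elovl5 was lost on leaving out any of 24 single libraries.

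Elovl1 differed by -0.47 ± 0.11 between the sex labels at peak as deposited (SE, limma adjusted p = 0.0014) and by -0.14 after median-of-ratios scaling (limma adjusted p = 0.25). Elovl3 differed by -0.89 ± 0.36 as deposited (SE, limma adjusted p = 0.04) and by -0.61 after scaling (limma adjusted p = 0.18). Elovl2, Hsd17b12, Tecr, Fads1 and Fads2 were between -0.16 and -0.04 as deposited and between 0.17 and 0.30 after scaling, with no call either way. Neutrophil markers were higher in male-labelled livers at peak in 3 of 3 tested and endothelial markers were lower in 4 of 5. Of all genes tested, 4.26% were called higher and 46.7% lower. The part of these cell types was not tested.

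Within the ethanol label at peak, Elovl3 separated the sex labels, with 0.77 to 1.59 TPM in male-labelled and 3.46 to 9.01 TPM in female-labelled libraries. The log2 difference was -1.91 ± 0.51 (SE, limma adjusted p = 0.0035, 49.4% of all genes called), and -1.57 after median-of-ratios scaling (limma adjusted p = 0.016). At early resolution the order was the other way, with 12.3 to 29.2 TPM in ethanol-labelled males and 2.09 to 9.59 TPM in ethanol-labelled females, again without overlap (1.97 ± 0.56, SE), though this difference was not called (limma adjusted p = 0.22, 0.178% of all genes called). At late resolution both ethanol-labelled groups lay between 3.46 and 5.72 TPM. Xist was present in all of these libraries.

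Within the control label, Elovl3 did not separate the sex labels at peak, with 77.8 to 271 TPM in male-labelled and 102 to 165 TPM in female-labelled libraries. At late resolution it was higher in control-labelled males, 136 to 378 TPM, than in control-labelled females, 8.33 to 90.7 TPM, by 2.60 ± 0.51 (SE, limma adjusted p = 0.015, 0.934% of all genes called). This difference includes late control female 1 at 8.33 TPM, and the other control-labelled females at 41.8, 56.4 and 90.7 TPM also lay below every control-labelled male. Elovl3 averaged over the diet labels differed by 1.36 ± 0.38 at early resolution (SE, limma adjusted p = 0.088) and by 1.19 ± 0.39 at late resolution (SE, limma adjusted p = 0.075), neither called as deposited.

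From peak to early resolution the sex label difference of Elovl3 rose by 2.26 ± 0.53 (SE, limma adjusted p = 0.0029), and to late resolution by 2.08 ± 0.54 (SE, limma adjusted p = 0.0043). It was the only one of the 8 genes called in either test, against 31.9% and 36.5% of all genes. All genes tested shifted by 0.32 and 0.34, and after median-of-ratios scaling the changes of Elovl3 were 1.94 and 1.74 (limma adjusted p = 0.0092 and 0.018), with 16.6% and 20.6% of all genes called. Elovl5 (-0.89, limma adjusted p = 0.011) and Tecr (-0.64, limma adjusted p = 0.022) were called from peak to late resolution after scaling alone.

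No gene of the 8 was called at early resolution between the sex labels, against 0.596% of all genes, or at late resolution, against 3.25%. The late count over all genes was 25 without late ethanol female 1 and 1853 without late ethanol female 3. After scaling, Elovl3 was called at early resolution (1.33, limma adjusted p = 0.049, 1.8% of all genes called) and Elovl1 at late resolution (-0.34, limma adjusted p = 0.031, 9.53% of all genes called). The diet by sex label interaction was called for none of the 8 genes at peak, early or late resolution, against 0.16%, 0.00889% and 0.0445% of all genes. At an unadjusted p under 0.05 there were 2, 2 and 1 of the 8 genes, against 13.3%, 4.59% and 8.04% of all genes. All genes tested shifted by -0.20 at peak and -0.14 at late resolution in this interaction. Elovl3 at late resolution had the largest value of the 8, at -2.82 ± 0.79 (SE, limma adjusted p = 0.23).

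**Figure D3:**
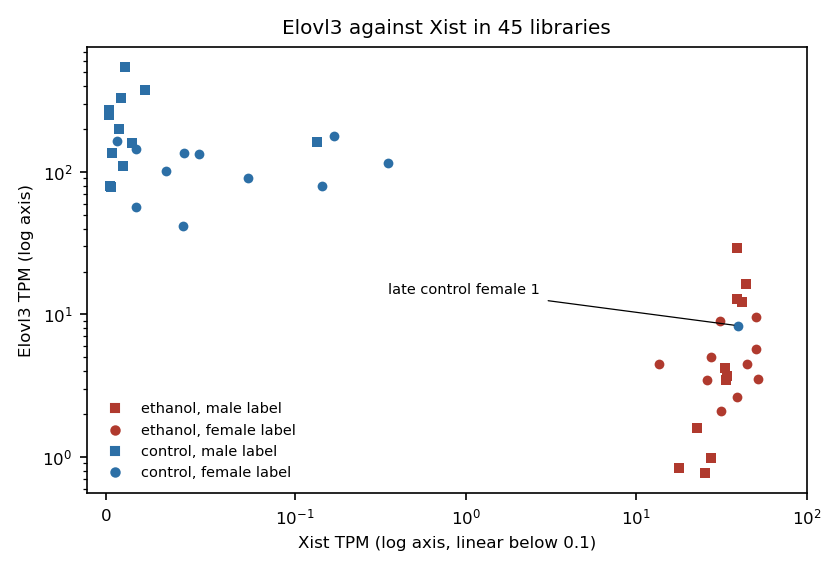
Elovl3 level (y axis, log axis) against Xist level (x axis, log axis, linear below 0.1), both in TPM, in each of the 45 libraries, by diet label (red ethanol, blue control) and sex label (squares male, circles female). The libraries with 13.7 TPM of Xist or more have at most 29.2 TPM of Elovl3, and late control female 1 is among them at 8.33 TPM; the others have at least 41.8 TPM.

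Ordered by group mean, Elovl3 was lowest in ethanol-labelled males at peak (1.04 ± 0.375 TPM, SD, n = 4). Ethanol-labelled males at late resolution (3.77 ± 0.367 TPM, n = 3), females at late resolution (4.56 ± 1.11 TPM, n = 3), females at early resolution (4.77 ± 4.18 TPM, n = 3) and females at peak (5.50 ± 2.43 TPM, n = 4) came next, with overlapping ranges. Ethanol-labelled males at early resolution (17.6 ± 7.91 TPM, n = 4) were the highest ethanol-labelled group. Of the control-labelled groups, females at late resolution (49.3 ± 34.2 TPM, n = 4) were lowest. Females at peak (129.8 ± 27.6 TPM), females at early resolution (134 ± 41.2 TPM) and males at peak (155 ± 84.5 TPM) came next. Males at late resolution (241 ± 103 TPM) and at early resolution (278 ± 205 TPM, SD, n = 4 each) were highest, and their ranges overlapped those of the groups just named.

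Related genes of the pathway were counted from lists chosen with earlier results of these data known. Of 42 related genes, 35 were tested, and with the ethanol label at peak 6 were higher and 2 lower (27.1% of all genes called). Among other desaturases, Scd2, a stearoyl-CoA desaturase, was higher by 0.49 and Fads3 by 0.37 (limma adjusted p = 0.022 and 0.024), 2 of 4 tested. Hacd3, a dehydratase of the elongation cycle, was higher by 0.52 (limma adjusted p = 0.0076), 1 of 4 other elongation genes, and Elovl6, the elongase of palmitate, was at -0.00 ± 0.37 (SE, not called). Of 3 electron donors none was called, and of 9 regulators only Nr1h2 (LXR beta) was, higher by 0.43 (limma adjusted p = 0.005). Srebf1 was 0.67 ± 0.28 higher without a call (limma adjusted p = 0.068).

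The peroxisomal genes, which shorten very long chains and complete docosahexaenoic acid synthesis, went both ways at peak. Abcd2, a peroxisomal importer of very long chain acyl-CoAs, was higher by 1.77 ± 0.33 (SE, limma adjusted p = 9.1e-05). Scp2, whose long form is the peroxisomal thiolase for branched chains, was lower by -0.86 ± 0.12 (SE, limma adjusted p = 6.2e-07). Of 7 genes of acyl-CoA and lysophospholipid metabolism tested, only Acsl1, a long-chain acyl-CoA synthetase, was called, lower by -0.92 ± 0.20 (SE, limma adjusted p = 0.0006).

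Abcd2, Scp2 and Acsl1 were called in the same directions at the later stages. At early resolution 4 of the 35 related genes were higher and 2 lower, against 14.3% and 2.46% of all genes, with Abcd2 at 2.39 and Cyb5a, the cytochrome that passes electrons to the desaturases, at 0.57 (limma adjusted p = 0.0047). At late resolution 4 were higher and 3 lower, against 12.8% of all genes called in either direction, and 68.9% of those calls were higher. Abcd2 was then at 1.89, Cyb5a at 0.55 (limma adjusted p = 0.011) and Srebf1 at 0.89 (limma adjusted p = 0.046). After median-of-ratios scaling Cyb5a and Nr1h2 were not called at early resolution (0.42 and 0.25, limma adjusted p = 0.068 and 0.064). Between the sex labels at peak 1 of 35 was higher and 20 were lower as deposited, against 4.26% and 46.7% of all genes, and 6 were higher and 7 lower after scaling, against 31.9% of all genes called.

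Some of the 8 genes varied together within groups. Over the 45 libraries, deviations from the group means of log2(TPM + 0.5) had a Pearson correlation of 0.86 between Fads1 and Fads2, 0.82 between Elovl2 and Fads1, 0.77 between Elovl2 and Fads2 and 0.69 between Elovl2 and Elovl5. Elovl1 and Tecr correlated at 0.68 and Elovl5 and Hsd17b12 at 0.69. Hsd17b12 and Tecr, which act in the same cycle, had an r of -0.38. Elovl3 had its highest correlation within groups with Hsd17b12, 0.42, and over all libraries, group differences included, that correlation was 0.78. These are descriptions over libraries that share a scale in which each library sums to the same total.

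**Figure D4:**
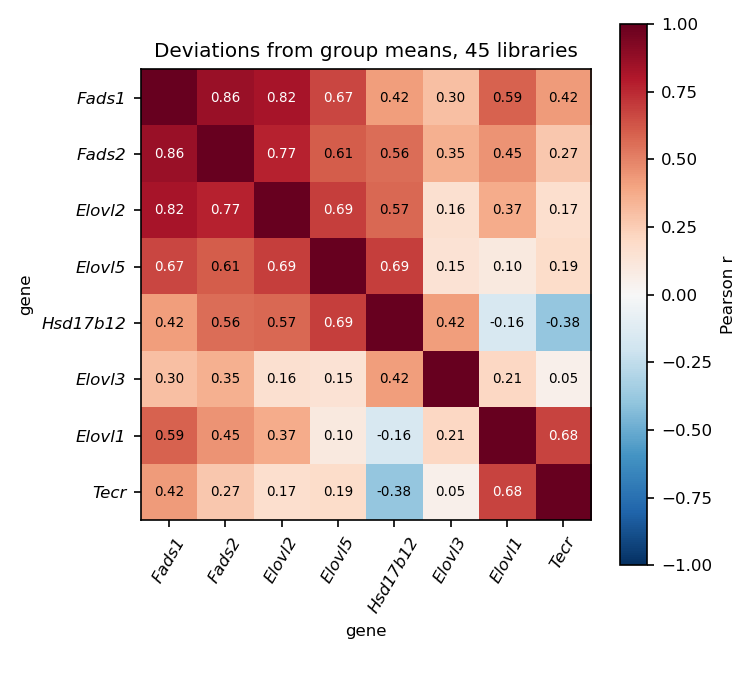
Pearson r between each pair of the 8 genes (both axes, colour and printed value) for deviations of log2(TPM + 0.5) from the group means over 45 libraries. Fads1, Fads2, Elovl2 and Elovl5 form a block with r from 0.61 to 0.86, and Elovl1 and Tecr pair at 0.68.

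Among 6028 genes averaging 5 TPM or more, those most like each member over the 45 libraries were found by Pearson correlation of log2(TPM + 0.5). For Elovl3 these were Abcg2 (0.95), Nat8f5 (0.95) and Nat8 (0.94), with correlations of 0.76, 0.73 and 0.76 within groups. For Hsd17b12 they were Enpp2, Scp2 and Kmo (0.88, 0.88 and 0.86), and for Fads1 Papss2, Rtn4 and Plpp3 (0.88, 0.87 and 0.87). Fads2 was most like Slc20a2, Slc38a3 and Fto (0.85, 0.85 and 0.84), and Elovl5 like Acsl5, Pcx and Smoc1 (0.79, 0.78 and 0.74). Elovl1 was most like Prrg2, Rhot2 and Ypel3 (0.91, 0.88 and 0.88), Tecr like Pmf1, Kxd1 and Naxe (0.87, 0.86 and 0.86), and Elovl2 like M6pr, Rad21 and Tbcel (0.81 for each).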

How the data were processed

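RNA from whole liver lysate was sequenced as bulk mRNA in 45 libraries of 12 groups. The deposited table holds TPM per gene made by the authors; mm10 is named per the submitters' processing notes, while aligner, counter and annotation are not given in the sources used. TPM fix each library's total and keep no depth, so no count test was run.

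Of 24972 entries, 26 date-like names (0.0441% of TPM) were left out, and the 11244 genes averaging 0.5 TPM or more were tested. Log2(TPM + 0.5) was fitted with limma 3.58.1 (R 4.3.3, trend) on 12 group means, with Benjamini-Hochberg adjustment over all genes tested and a call at an adjusted p under 0.05. A log2 difference on this scale understates the change of low genes. All 8 members are named, related genes are named from the 4 with the smallest p of each list in a comparison, and the most alike genes are the first 3 by Pearson correlation. The members and lists were chosen with earlier results of these data known.

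The fit was tested on simulated data of 11244 genes: for the diet label at peak, 91 of 100 genes given a log2 change of 1 were called, as were 75 for the diet label change to late resolution and 41 for the diet by sex label interaction at peak. Replicate numbers did not pair the libraries of all groups of a stage. Alternatives were another pseudocount, filter, normalization, stage-wise fit, replicate block and left-out libraries. 1 related gene is not reported here by name.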

Additional observations from a re-analysis of the deposited data

Results flagged for a closer look

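Among 72 gene and group combinations of 4 libraries, 3 held a library whose gap to the nearest other library exceeded Dixon's critical value, and chance gives this in about 1 of 20 groups. Elovl1 stood at 19.7 TPM in late control female 4, against 37.5 to 40.4 TPM in the other libraries of its group. Fads2 stood at 229 TPM in peak control female 4, against 567 to 579.8 TPM in the others. Fads2 stood at 436 TPM in early control female 3, against 545 to 551 TPM in the others.

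The sex label difference of Elovl3 differed between stages in a direct test. It changed by 2.26 on the log2 scale from peak to early resolution and by 2.08 from peak to late resolution (limma adjusted p = 0.0029 and 0.0043). In these tests 31.9% and 36.5% of all genes were called, and the median change over all genes was 0.32 and 0.34.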

How the results depend on the processing

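Elovl3 and Hsd17b12 were called lower with the ethanol label at peak under every alternative run. At late resolution both held under every alternative except when ethanol-labelled females were set against late control female 1 alone, the planned form without libraries against their sex label. That form has 1 control-labelled library, assumed to vary like the other groups, and says little of stability. Against the 4 control-labelled males instead, added after the data were seen, both were called, Tecr was added, and Fads2 turned to -0.075. The number of the 8 genes called moved as follows, with some moves of 1 gene left out. For the diet label at peak it was 4 without the libraries against their sex label, against 6 with all libraries. Between sex labels at peak it was 1 with no filter and 1 after median-of-ratios scaling; at early resolution it was 1 under quantile normalization and 1 under median-of-ratios scaling; at late resolution it was 2 and 1. For the diet label change to late resolution it was 1 under quantile normalization, and for the sex label change to late resolution 3 under median-of-ratios scaling. For the diet label at early resolution it was 2 when the stage was fitted alone and 2 without the libraries against their sex label, and at late resolution 0 against late control female 1 alone. Leaving out 1 library gave 5 to 7 genes for the diet label at peak, 2 to 5 at early and 2 to 3 at late resolution, and 1 to 3, 0 to 1 and 0 to 2 for the sex label.

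Signs turned only in differences that were not called, with the exception of Elovl1 between diet labels at peak. It turned without the libraries against their sex label, where the median over all genes was 0.34, against 0.05 with all libraries. In that setting 91.3% of calls over all genes were higher, against 63.8% with all libraries. The cause was not tested. Under quantile normalization Fads2 was -0.0016 at early and Elovl1 -0.028 at late resolution between diet labels, and between sex labels at peak Elovl2 was 0.069, Hsd17b12 0.15, Tecr 0.067, Fads1 0.084 and Fads2 0.092, with Elovl5 at 0.0052 at late resolution. Under median-of-ratios scaling Elovl1 was -0.034 at late resolution between diet labels, and between sex labels at peak Elovl2 was 0.17, Hsd17b12 0.26, Tecr 0.25, Fads1 0.22 and Fads2 0.30. Without the libraries against their sex label Elovl1 was 0.12 at peak and 0.061 at early resolution, Tecr -0.20, Fads1 -0.056 and Fads2 -0.23 at late resolution against late control female 1, and the Elovl3 diet label change to early resolution -1.03. With 1 library left out, the diet label ranges that crossed 0 were Elovl1 -0.17 to 0.040 and Fads2 -0.038 to 0.40 at early resolution, and Elovl5 -0.13 to 0.092, Elovl1 -0.094 to 0.081 and Fads2 -0.038 to 0.19 at late resolution. The sex label ranges were Fads2 -0.20 to 0.033 at peak, Tecr -0.19 to 0.018 and Fads2 -0.021 to 0.34 at early resolution, and Elovl5 -0.17 to 0.033 at late resolution.

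Same-numbered libraries of a stage had correlations of deviations from -0.433 to 0.527 (median -0.052), and 15 of 64 were over 0.1. Between ethanol and control females at peak all 4 were, at 0.109 to 0.222, and between no other groups of a stage were all pairs, so the numbers were not taken to pair the groups. With the replicate block, 6, 4 and 2 of the 8 genes were called between diet labels and 3, 0 and 0 between sex labels; Elovl1 was -0.093 and Fads2 -0.031 at late resolution between diet labels. The diet label called 3049, 1880 and 1440 genes in all at the 3 stages, and 2250 at late resolution after median-of-ratios scaling, 727 with the stage alone and 627 with the block. Between sex labels at peak 5729 genes were called, and 3587 after median-of-ratios scaling, where 48.1% of calls were higher, against 8.36% as deposited. Leaving out 1 library moved the counts over all genes to 1123 and 3019 for the diet label at early resolution (without early ethanol female 2 and 1), 968 and 2094 at late resolution (without late control female 4 and 1), 16 and 205 for the sex label at early resolution (without early ethanol female 2 and 3), and 4 and 134 for the diet by sex label interaction at peak (without peak control male 3 and peak ethanol female 3).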
